A study of Mus musculus with 40 samples.

Results

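Glucocorticoid receptors, their target genes and the metallothioneins were examined as 10 named genes of the 47643 in the count tables, namely Nr3c1, Nr3c2, Fkbp5, Sgk1, Tsc22d3, Zbtb16, Hif3a, Mt1, Mt2 and Mt3. They were matched by Ensembl identifier to the symbol, and all 10 passed the count minimum in every comparison. The set was chosen by the measured levels of these genes, among them the correlation of Mt2 between both brain regions of these libraries, so correlations between regions are given as descriptions without a test. The study colonized wild-type germ-free Swiss Webster mice, which its methods describe as females aged 6 to 8 weeks, with stool that 10 donors gave before (pre-KD) or after (post-KD) a clinical ketogenic diet (KD), a high-fat and low-carbohydrate diet used against refractory epilepsy. All recipients ate the same vitamin- and mineral-matched control diet, so that the groups differed in the stool they received and not in their own food. Hippocampus and frontal cortex were taken at day 4 and 6 mice were pooled per library, which gave 10 libraries for each condition and region, 40 in all. The mice given 1 stool sample form a cohort with 1 library in each region, and each of the 20 cohorts is named here by condition and donor number. A pool averages its mice, so the spread between libraries is a spread between cohorts.

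Glucocorticoids enter cells and bind the glucocorticoid receptor Nr3c1 or the mineralocorticoid receptor Nr3c2, which then act in the nucleus as transcription factors at glucocorticoid response elements (GRE). In brain, Nr3c2 is best known from hippocampal neurons and binds the hormone at low concentrations, whereas Nr3c1 is widespread and is engaged when the hormone rises, and Fkbp5, Sgk1, Tsc22d3, Zbtb16 and Hif3a are genes that rise after glucocorticoid exposure in many tissues. Metallothioneins are small cysteine-rich proteins that bind zinc and copper. Mt1 and Mt2 are induced by metals through metal response elements (MRE) and by glucocorticoids, whereas Mt3 is a brain form that is little induced by either.

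Library totals were 1140756 to 1947416 counts in hippocampus and 1188447 to 2095352 in frontal cortex, and levels are given as CPM, the share of a library's counts after all libraries were scaled together. A single transcript, Gm42418, which overlaps the ribosomal RNA repeat, took 8.63% to 18% of a library's counts. In the 8 libraries of donors 9 and 10 the summed level of 4 Y-linked mouse genes was 79 to 179 CPM and Xist, the RNA of the inactive X chromosome, was 3.4 to 27.2 CPM, whereas Xist was 449.7 to 729 CPM in the other 32. Those 8 mouse libraries therefore go against the description of the recipients as females, and both conditions and both regions hold the same number of them. Among the other libraries, 1 held 15.8 CPM of Y-linked counts, the hippocampal pre-KD library of donor 2, and none of the rest exceeded 2.26 CPM. The tissue labels were read against marker lists, of which 5 of 8 hippocampal neuron markers were lower in frontal cortex at an adjusted p under 0.05 in edgeR, and 4 of 8 cortical neuron markers were higher and 1 was lower. Summed markers of striatum were 447 to 1018 CPM in frontal cortex and 49.3 to 287 CPM in hippocampus, and those of choroid plexus were 737 to 5759 CPM in hippocampus and 130.0 to 914 CPM in frontal cortex.

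Mt3, Mt2 and Mt1 lie next to each other on the plus strand of chromosome 8, at chr8:94152607-94154146, chr8:94172664-94173568 and chr8:94179082-94180327 in GENCODE M21 (GRCm38), and Sgk1 is at chr10:21882184-21999903 on the plus strand. The 250 bases before a RefSeq start (GRCm38.p6) are shown for these genes because the metallothioneins are set against each other below and Sgk1 is the gene that varied most like Mt1 within the set. Capitals mark the MRE core, searched as TGCACNC and TGCGCNC, and the GRE, searched as AGAACA and TGTTCT with 3 bases of any kind between them, on both strands and read 5′ to 3′. The Mt1, Mt2 and Mt3 windows, at chr8:94178839-94179088, chr8:94172368-94172617 and chr8:94152357-94152606, lie upstream of the gene apart from 7 bases of the Mt1 window that GENCODE lists as exon. The Sgk1 window, at chr10:21993640-21993889, is intronic to the longest Sgk1 gene model and is 1 of 6 Sgk1 windows.
Mt1: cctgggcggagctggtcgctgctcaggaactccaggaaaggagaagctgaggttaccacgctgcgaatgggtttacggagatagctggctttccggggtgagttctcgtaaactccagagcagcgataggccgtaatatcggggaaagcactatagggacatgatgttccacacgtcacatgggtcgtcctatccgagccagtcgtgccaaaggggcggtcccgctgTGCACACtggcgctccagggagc
Mt2: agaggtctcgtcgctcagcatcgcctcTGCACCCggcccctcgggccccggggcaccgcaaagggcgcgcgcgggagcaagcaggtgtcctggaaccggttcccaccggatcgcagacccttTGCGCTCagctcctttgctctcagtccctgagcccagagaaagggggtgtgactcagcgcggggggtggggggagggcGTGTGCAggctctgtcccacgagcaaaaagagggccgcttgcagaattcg
Mt3: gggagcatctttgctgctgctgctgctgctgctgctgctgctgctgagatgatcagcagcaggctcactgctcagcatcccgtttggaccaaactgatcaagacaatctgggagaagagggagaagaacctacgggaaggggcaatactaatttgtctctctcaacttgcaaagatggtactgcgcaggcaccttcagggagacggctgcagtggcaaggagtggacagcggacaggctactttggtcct
Sgk1: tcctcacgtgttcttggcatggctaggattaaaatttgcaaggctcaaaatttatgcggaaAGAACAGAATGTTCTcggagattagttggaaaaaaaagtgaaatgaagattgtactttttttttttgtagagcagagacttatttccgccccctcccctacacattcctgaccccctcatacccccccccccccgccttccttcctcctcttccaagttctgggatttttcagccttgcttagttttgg
The Mt2 window held 3 MRE cores, the Mt1 window 1 and the Mt3 window 0. Of 32851 windows of the same length, 21.4% held a core of either kind and 1.26% held at least 3. The exact GRE was in 3 of all windows, a share of 0.00913%, and 1 of these was the printed Sgk1 window. This window was chosen for printing because it held the GRE, and the other 5 Sgk1 windows held 0. The half-site TGTTCT, which is part of the GRE, was held by 16.1%. Windows matched 8 of the 10 genes, all but Zbtb16 and Nr3c1, and of the others Nr3c2 and Hif3a had 1 MRE core each, Fkbp5 and Tsc22d3 had 0. A match describes these letters only, and a window without one says nothing about binding.

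On the scale of CPM per kilobase of exon, metallothioneins were the most abundant of the 10 genes. The hippocampal level was 569.8 ± 169 for Mt2, 455 ± 105 for Mt1 and 71 ± 29.1 CPM per kilobase for Mt3 (SD, n = 20). Then came Zbtb16 at 9.46 ± 3.7, Nr3c1 at 8.8 ± 2.54, Tsc22d3 at 6.47 ± 3.99 and Sgk1 at 4.53 ± 2.52 CPM per kilobase. Nr3c2 at 1.66 ± 1.34, Fkbp5 at 1.59 ± 1.2 and Hif3a at 0.279 ± 0.592 were the lowest. Neighbours in this order differed by less than the larger of their SDs, except Mt1 from Mt3, Mt3 from Zbtb16, Sgk1 from Nr3c2 and Fkbp5 from Hif3a. In frontal cortex Mt1 at 453 ± 71.6 CPM per kilobase stood before Mt2 at 405 ± 69.2 and Mt3 at 74.7 ± 29.4. Nr3c1 at 9.74 ± 2.37 followed, then Tsc22d3 at 6.12 ± 2.88, Zbtb16 at 5.66 ± 4.02, Sgk1 at 4.99 ± 2.96, Fkbp5 at 1.29 ± 0.879, Nr3c2 at 1.14 ± 1.14 and Hif3a at 0.149 ± 0.356 CPM per kilobase. Here the exceptions were Mt2 from Mt3, Mt3 from Nr3c1, Nr3c1 from Tsc22d3 and Sgk1 from Fkbp5. Per-length levels assume reads along the whole transcript, and the sources name both a whole-transcript and a 3′-end library kit, which limits the order between genes. The exonic length of Mt1, 1246 bases, takes in its whole gene span, whereas the 588 bases of Mt2 do not. The order of Mt1 and Mt2 per kilobase therefore also depends on the lengths used. Not divided by length, the hippocampal mean was 567 CPM for Mt1 and 335 CPM for Mt2, the reverse of their order per kilobase. The median of Nr3c1 at 68.6 CPM stood above that of Mt3 at 63.7 CPM, whereas their means were 67.6 and 75.6 CPM. Of the 588 exonic bases of Mt2, 432 face an antisense gene, Gm45774, which is not among the genes counted. The strand setting of the counting is not given in the sources used here, so reads of both cannot be told apart. Counting without regard to strand would give reads of Gm45774 to Mt2. This limit also holds for the comparisons of Mt2 and of its ratio to Mt1 below.

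**Figure D1:**
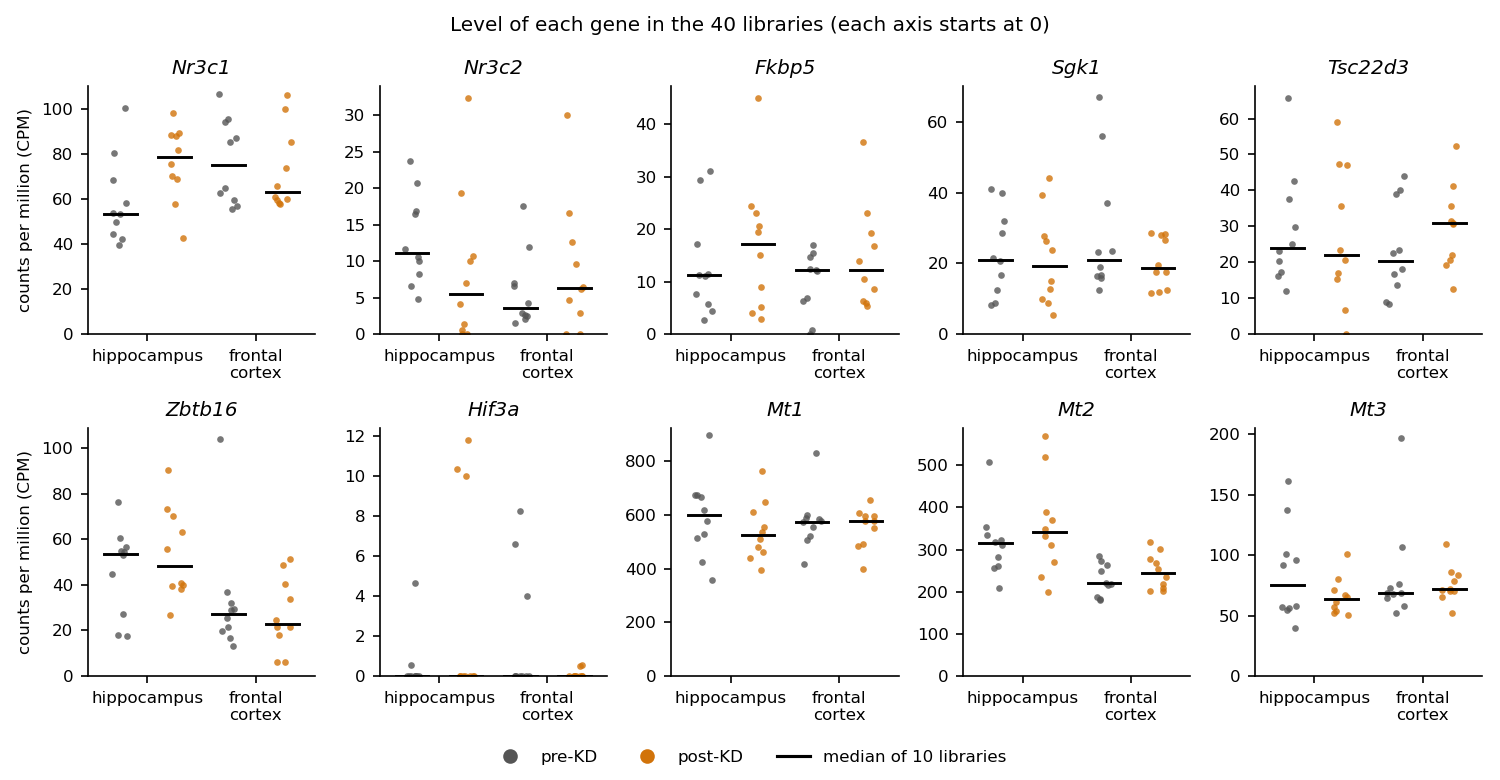
Level of each of the 10 genes in CPM (y axes, from 0) in the 40 libraries, by region and by pre-KD (grey) or post-KD (orange) stool, with a bar at the median of 10 libraries. Pre-KD and post-KD libraries overlap for every gene. With either stool the medians of Mt2, Zbtb16 and, by less, Sgk1 are lower in frontal cortex than in hippocampus.

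The first question of the design was whether post-KD microbiota changed these genes relative to pre-KD microbiota in either region. No gene of the 10 passed an adjusted p of 0.05 by the edgeR quasi-likelihood test in hippocampus, where 0.0057% of 17529 genes did, or in frontal cortex, where 0.0056% of 17873 did. At an unadjusted p under 0.05 the count was 0 of 10 in hippocampus, beside 10.1% of all genes, and 1 of 10 in frontal cortex, beside 9.68%. With the stool donor as a block in edgeR, 348 and 548 of all genes were under that unadjusted threshold in place of 1762 and 1731, and 0 of the 10 genes were in either region. With the block in DESeq2 the counts were 931 and 1096, and 1 of the 10 genes, Nr3c2 in hippocampus, was among them. In DESeq2 without the block the counts over all genes were 599 and 825, with 0 of the 10 genes in either region. The median log2 fold change of the 10 genes was 0.033 in hippocampus and -0.071 in frontal cortex, beside -0.0076 and 0.0087 over all genes tested.

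Of the receptors, Nr3c1 ranged (lowest, median, highest) from 39.8 through 53.5 to 101 CPM with pre-KD stool and from 42.7 through 78.5 to 98.4 CPM with post-KD stool in hippocampus. The ranges overlapped, although the post-KD library was the higher for 8 of 10 donors. The log2 fold change was 0.36 (SE 0.27, adjusted p = 0.913). In frontal cortex Nr3c1 ranged from 55.7 through 75 to 107 CPM with pre-KD stool and from 57.8 through 63.3 to 106 CPM with post-KD stool, a log2 fold change of -0.082 (SE 0.19, adjusted p = 0.998). Nr3c2 was thinly counted, with group means of 9.3 to 21 reads per library, and 247 of its 6474 exonic bases are shared with a gene on the other strand, Gm10649. Its levels ranged from 4.75 through 11.1 to 23.7 CPM with pre-KD stool and from 0 through 5.55 to 32.4 CPM with post-KD stool in hippocampus, with a log2 fold change of -0.61 (SE 0.83, adjusted p = 0.9998). With the donor as a block it was -1.59 in edgeR (unadjusted p = 0.159) and -1.59 in DESeq2 (unadjusted p = 0.0317, adjusted p = 0.862), and leaving out 1 donor gave -1.20 to -0.35. In frontal cortex they ranged from 1.55 through 3.51 to 17.6 CPM with pre-KD stool and from 0 through 6.36 to 30.0 CPM with post-KD stool, with a log2 fold change of 0.59 (SE 0.74, adjusted p = 0.980), or 0.063 without donor 7 and 0.997 without donor 10. The fitted change was below 0 in hippocampus and above 0 in frontal cortex, and the test of the difference between regions gave 1.67 (SE 1.44, adjusted p = 1). Leaving out 1 donor gave differences of 0.94 to 2.29.

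The coefficient of variation of each target gene was above its counting error in all 4 groups, except that of Hif3a in post-KD frontal cortex. Fkbp5 (chr17:28399094-28517527), a co-chaperone that lowers the affinity of the receptor for its hormone, ranged from 2.72 through 11.2 to 31.2 CPM with pre-KD stool and from 2.78 through 17.2 to 45.1 CPM with post-KD stool in hippocampus and from 0 through 12.1 to 17.1 CPM with pre-KD stool and from 5.3 through 12.2 to 36.7 CPM with post-KD stool in frontal cortex. Its log2 fold change was 0.34 (SE 0.67, adjusted p = 0.9998) in hippocampus and 0.57 (SE 0.56, adjusted p = 0.952) in frontal cortex. Leaving out 1 donor gave 0.035 to 0.68 in hippocampus, with the lowest value without donor 6 and the highest without donor 4, and 0.32 to 0.73 in frontal cortex. Its coefficient of variation within the 4 groups was 61.3% to 76%, whereas counting alone would give 19.9% to 25.5% at this depth.

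Sgk1, a kinase that acts on ion channels and transporters, ranged from 8.27 through 21.1 to 41 CPM with pre-KD stool and from 5.45 through 19.3 to 44.3 CPM with post-KD stool in hippocampus and from 12.5 through 21 to 67.2 CPM with pre-KD stool and from 11.6 through 18.6 to 28.6 CPM with post-KD stool in frontal cortex. The groups overlapped in both regions, and the highest cortical library was that of pre-KD donor 6. The log2 fold change was -0.11 (SE 0.53, adjusted p = 0.9998) in hippocampus, or 0.022 without the pre-KD library of donor 6. In frontal cortex it was -0.51 (SE 0.36, adjusted p = 0.823), or -0.28 without that library, and leaving out 1 donor gave -0.67 to -0.33.

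Tsc22d3 (chrX:140539528-140600659), also known as GILZ, encodes a leucine zipper protein through which glucocorticoids restrain inflammation. It ranged from 12.1 through 24.1 to 65.8 CPM with pre-KD stool and from 0 through 22 to 59.1 CPM with post-KD stool in hippocampus and from 8.43 through 20.4 to 43.9 CPM with pre-KD stool and from 12.5 through 30.8 to 52.3 CPM with post-KD stool in frontal cortex. The log2 fold changes were -0.092 (SE 0.48, adjusted p = 0.9998) and 0.34 (SE 0.34, adjusted p = 0.956), and the hippocampal one was 0.13 without the pre-KD library of donor 6. Leaving out 1 donor gave cortical values of 0.17 to 0.55, the lowest without donor 3 and the highest without donor 9. Zbtb16 (chr9:48654297-48836222), a zinc finger transcription factor also called PLZF, ranged from 17.5 through 53.7 to 76.1 CPM with pre-KD stool and from 26.6 through 48.2 to 90.2 CPM with post-KD stool in hippocampus and from 13.1 through 27.1 to 104 CPM with pre-KD stool and from 5.93 through 22.9 to 51.3 CPM with post-KD stool in frontal cortex. The cortical maximum was again pre-KD donor 6, and the next pre-KD library was at 36.8 CPM. Its log2 fold changes were 0.20 (SE 0.32, adjusted p = 0.9998) and -0.27 (SE 0.35, adjusted p = 0.980), and the latter was 0.13 without that library. The hippocampal one also turned, to -0.081 in limma-voom and -0.0063 without donor 5.

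Hif3a (chr7:17031507-17062427), a hypoxia-inducible factor subunit that is also a glucocorticoid target, was at 0 counts in 15 of 20 libraries of each region. In frontal cortex it had 16, 7 and 6 counts in the pre-KD libraries of donors 6, 8 and 9, and 2 counts in all post-KD libraries. It was the 1 gene of the 10 under the unadjusted threshold (p = 0.0205 in edgeR), with a fitted log2 fold change of -3.41 (SE 1.44, adjusted p = 0.306) that depends on the prior count. The 2 post-KD counts against 29 pre-KD counts gave a ratio per total count of 0.0639, and the exact 95% interval, which takes in only counting error, was 0.00739 to 0.253. When edgeR blocked on the donor the log2 fold change was -1.62 (SE 1.96, unadjusted p = 0.408), and the unadjusted p was 0.0692 without donor 6 and 0.0583 without donor 8. DESeq2 gave -3.55 (unadjusted p = 0.0743), or -0.73 with the block (unadjusted p = 0.807), and limma-voom with quality weights gave -1.20 (unadjusted p = 0.0885). In hippocampus there were 8 pre-KD counts, 7 of them in donor 7, and 45 post-KD counts, with 17, 12 and 16 in donors 1, 3 and 9. The hippocampal log2 fold change was 2.44 (SE 1.54, adjusted p = 0.772), or 4.66 (unadjusted p = 0.00582 in edgeR, adjusted p = 0.121) without donor 7. In limma-voom with quality weights it was 1.63 (unadjusted p = 0.0443, adjusted p = 0.901). The test of the difference between regions gave -3.38 (SE 2.75, adjusted p = 1), and leaving out 1 donor gave -4.69 to -1.47. A few libraries carried nearly all Hif3a counts in each region.

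Mt1 and Mt2 had the smallest standard errors of the set in both regions. Mt1 ranged from 356 through 599 to 897 CPM with pre-KD stool and from 396 through 523 to 764 CPM with post-KD stool in hippocampus and from 417 through 575 to 829 CPM with pre-KD stool and from 399 through 577 to 655 CPM with post-KD stool in frontal cortex, and pre-KD donor 6 was the highest in both regions. Its log2 fold change was -0.14 (SE 0.13, 95% interval -0.42 to 0.14, adjusted p = 0.993) in hippocampus, or -0.033 without donor 6. In frontal cortex it was -0.059 (SE 0.10, 95% interval -0.27 to 0.16, adjusted p = 0.997), or 0.014 without the pre-KD library of donor 6. Mt2 ranged from 208 through 314 to 508 CPM with pre-KD stool and from 199 through 341 to 569 CPM with post-KD stool in hippocampus and from 179.6 through 219.8 to 286 CPM with pre-KD stool and from 201 through 244 to 318 CPM with post-KD stool in frontal cortex. The ranges overlapped in both regions and the post-KD medians were the higher. The log2 fold change of Mt2 was 0.16 (SE 0.15, 95% interval -0.17 to 0.48, adjusted p = 0.9998) in hippocampus and 0.12 (SE 0.12, 95% interval -0.14 to 0.38, adjusted p = 0.958) in frontal cortex. Leaving out 1 donor gave 0.028 to 0.27 and 0.042 to 0.17, and the lowest value of both regions was that without donor 3.

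Mt3, the brain form, ranged from 39.5 through 74.9 to 161 CPM with pre-KD stool and from 50.9 through 63.7 to 101 CPM with post-KD stool in hippocampus and from 52.3 through 68.9 to 197 CPM with pre-KD stool and from 52.1 through 71.6 to 109 CPM with post-KD stool in frontal cortex. The highest library of both regions was that of pre-KD donor 8. The log2 fold change was -0.38 (SE 0.26, adjusted p = 0.850) in hippocampus and -0.13 (SE 0.20, adjusted p = 0.991) in frontal cortex, and without donor 8 these were -0.19 and 0.14. The coefficient of variation of Mt3 was 46.8% in pre-KD and 23.2% in post-KD hippocampus, and 51% and 19.9% in frontal cortex, a difference in spread that was not tested. The pre-KD value in frontal cortex rests in large part on donor 8 at 197 CPM, since the next pre-KD library was at 107 CPM.

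**Figure D2:**
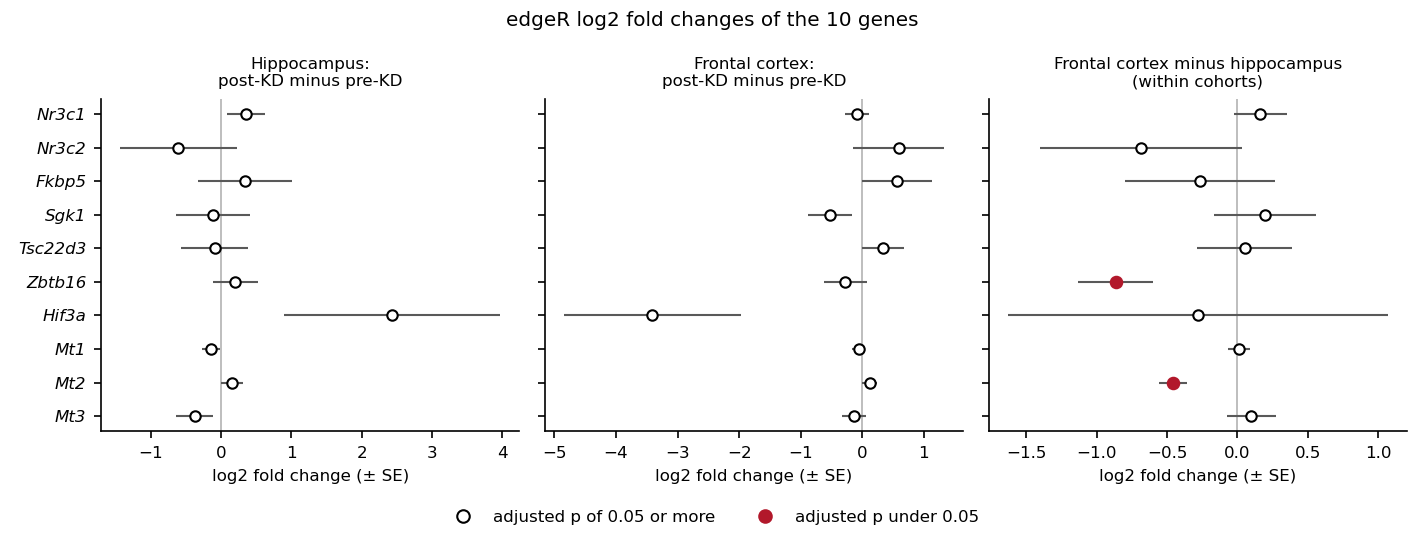
edgeR log2 fold changes (x axes, points) with standard errors (bars) for the 10 genes: post-KD minus pre-KD in hippocampus and in frontal cortex, and frontal cortex minus hippocampus within cohorts. Filled red points passed an adjusted p of 0.05, which Mt2 and Zbtb16 did in the comparison of regions, and every point of the post-KD panels is open.

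Other genes of these pathways were taken from lists. Among 20 tested further glucocorticoid targets, 1 had an unadjusted p under 0.05 in each region and 0 passed adjustment, with a median log2 fold change of 0.12 in hippocampus and 0.17 in frontal cortex. In hippocampus it was Fam107a, a stress-responsive actin-binding gene, at 120.5 ± 35.9 CPM with pre-KD stool and 87.7 ± 21.7 CPM with post-KD stool (SD, n = 10), with an edgeR log2 fold change of -0.47 (SE 0.22, adjusted p = 0.404). In frontal cortex it was Mertk, a receptor kinase for the uptake of dying cells, at 60.3 ± 15.9 and 39.8 ± 19.8 CPM (SD, n = 10), with an edgeR log2 fold change of -0.61 (SE 0.26, adjusted p = 0.304). Among 15 receptor chaperones and cofactors, Hsp90ab1 was under the unadjusted threshold in both regions and 0 passed adjustment. Hsp90ab1 encodes a subunit of the chaperone that holds the receptor ready for its hormone. Its level was 2178 ± 552 CPM with pre-KD stool and 1897 ± 254 CPM with post-KD stool in hippocampus (SD, n = 10), an edgeR log2 fold change of -0.21 (SE 0.10, adjusted p = 0.404). In frontal cortex it was 2263 ± 500.1 and 1887 ± 151 CPM (SD, n = 10), an edgeR log2 fold change of -0.26 (SE 0.084, adjusted p = 0.122).

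Zinc handling genes showed 0 of 21 under the unadjusted threshold in hippocampus and 2 of 20 in frontal cortex. The zinc exporter Slc30a1 was at 23.2 ± 5.49 CPM with pre-KD stool and 40.5 ± 22.5 CPM with post-KD stool in frontal cortex (SD, n = 10), with an edgeR log2 fold change of 0.80 (SE 0.31, adjusted p = 0.205). The zinc importer Slc39a6 was at 33.8 ± 9.68 and 19.4 ± 13.3 CPM (SD, n = 10), with an edgeR log2 fold change of -0.80 (SE 0.36, adjusted p = 0.380). Of 11 hypoxia genes, 0 were under the threshold in hippocampus and 2 were in frontal cortex, Hif1a and Epas1, the oxygen-regulated subunits related to Hif3a. Hif1a was at 30.8 ± 8.63 and 45.8 ± 14.7 CPM (SD, n = 10), with an edgeR log2 fold change of 0.57 (SE 0.27, adjusted p = 0.450). Epas1 was at 52.4 ± 15 and 70.9 ± 22.6 CPM (SD, n = 10), with an edgeR log2 fold change of 0.43 (SE 0.21, adjusted p = 0.499). No gene of these lists passed adjustment, and the shares of all genes under the unadjusted threshold were the 10.1% and 9.68% given above.

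The second question was how the genes differed between frontal cortex and hippocampus of the same cohorts, in a fit over all 40 libraries with a term for each of the 20 cohorts. Of 19422 genes tested, 2.85% passed an adjusted p of 0.05 and 0.87% did so with a lower level in frontal cortex. Of the 10 genes, Mt2 and Zbtb16 passed, both lower in frontal cortex. The set was chosen with its levels in these libraries known, so these p-values are not separate from that choice. Mt2 ranged from 199 through 320.3 to 569 CPM in hippocampus and from 179.6 through 229 to 318 CPM in frontal cortex, and it was lower in frontal cortex in 18 of 20 cohorts. The ranges overlapped between libraries while the direction was shared by most cohorts. Its log2 fold change was -0.46 (SE 0.10, adjusted p = 0.000274), and the median over all genes tested was 0.17. Alternative fits gave log2 fold changes of -0.49 to -0.43, with a largest adjusted p of 0.00651, and leaving out 1 donor gave -0.49 to -0.43.

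Zbtb16 ranged from 17.5 through 53.7 to 90.2 CPM in hippocampus and from 5.93 through 24.8 to 104 CPM in frontal cortex, and it was lower in frontal cortex in 15 of 20 cohorts. Its log2 fold change was -0.87 (SE 0.27, adjusted p = 0.0439). The call was kept in 5 of 6 alternative fits, with an adjusted p of 0.00306 in DESeq2, and the adjusted p in edgeR was 0.0553 without a gene filter. When 1 donor was left out in edgeR the call was kept for 3 of 10 donors, and the adjusted p was 0.106, 0.0936, 0.173, 0.0948, 0.0770, 0.127 and 0.0795 without donor 1, 2, 3, 5, 6, 8 or 10, with log2 fold changes of -0.98 to -0.76 over all donors left out in turn. The largest exception in direction was the pre-KD cohort of donor 6, at 53.1 CPM in hippocampus and 104 CPM in frontal cortex.

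The other 8 genes did not pass. Mt1 had means of 567 ± 131 CPM in hippocampus and 565 ± 89.2 CPM in frontal cortex (SD, n = 20), an edgeR log2 fold change of 0.012 (SE 0.077, 95% interval -0.15 to 0.17, adjusted p = 0.982) whose sign turned under other scalings, at -0.021 with RLE size factors and -0.022 in DESeq2. Mt3 differed by 0.10 (SE 0.18, adjusted p = 0.906), Nr3c1 by 0.16 (SE 0.19, adjusted p = 0.828) and Nr3c2 by -0.68 (SE 0.72, adjusted p = 0.806) on the log2 scale. Sgk1 and Fkbp5 differed by 0.20 (SE 0.36, adjusted p = 0.911) and -0.27 (SE 0.53, adjusted p = 0.921), and Tsc22d3 and Hif3a by 0.052 (SE 0.34, adjusted p = 0.983) and -0.28 (SE 1.35, adjusted p = 0.977). Leaving out 1 donor gave 0.060 to 0.25 for Nr3c1, the lowest without donor 6, and -0.87 to -0.34 for Nr3c2, of which the value nearest to 0 was that without donor 3. It gave 0.10 to 0.30 for Sgk1, the lowest without donor 6, and -0.49 to -0.13 for Fkbp5, between the values without donors 3 and 7. For Mt3 it gave 0.059 to 0.17, and other fits gave 0.023 to 0.099. The post-KD change differed between regions for 0 of the 10 genes at an unadjusted p under 0.05 in edgeR, where 2.22% of all genes were called and 0.0154% passed adjustment. Of the pathway lists, 1 of 21 zinc genes was under this threshold and 0 of the 21 further targets, 15 chaperones and cofactors and 11 hypoxia genes. The zinc gene was the zinc transporter Slc30a7, named here after its values were seen, with an edgeR difference of 4.07 (SE 1.54, adjusted p = 1) on the log2 scale.

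Markers of cells that could carry these genes were read beside the regional differences. Summed astrocyte markers were 2722 to 3330 CPM in hippocampus and 2816 to 3525 CPM in frontal cortex, and 1 of 10 passed adjustment, higher in frontal cortex. Choroid plexus markers were lower in frontal cortex, 8 of 10 at an adjusted p under 0.05, with a median log2 fold change of -3.49. Across the 20 cohorts the regional difference of Mt2 had an r of -0.15 with that of choroid plexus markers, -0.29 with that of astrocyte markers and -0.028 with that of hippocampal neuron markers. Over all 11 lists of cells and activity the values for Mt2 ran from -0.45 for microglia to 0.32 for oligodendrocytes, and blood was at -0.31. With the regional difference of Gm42418 the r of Mt2 was -0.39. For Zbtb16 the values for choroid plexus, astrocytes and hippocampal neurons were -0.26, 0.42 and 0.17. Over the 11 lists they ran from -0.37 for endothelium to the value for astrocytes, and oligodendrocytes were at -0.36. In bulk tissue, fewer cells of a type and less RNA per cell cannot be told apart, and the part of cell makeup in these differences was not tested.

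The pathway lists were read beside the 2.85% of all genes that passed between regions. Of 21 further glucocorticoid targets, Klf9 and Cdkn1a passed adjustment, both higher in frontal cortex. Klf9, a transcription factor induced by the receptor, was at 529 ± 107 CPM in hippocampus and 646 ± 76.2 CPM in frontal cortex (SD, n = 20), an edgeR log2 fold change of 0.30 (SE 0.076, adjusted p = 0.00397). Cdkn1a, a cell cycle inhibitor, was at 23.4 ± 16.5 and 45.1 ± 19.5 CPM (SD, n = 20), an edgeR log2 fold change of 1.08 (SE 0.30, adjusted p = 0.0172). Ddit4, an inhibitor of mTORC1 signaling, came next by p at -0.52 (SE 0.27, adjusted p = 0.473). Of 15 chaperones and cofactors 0 passed. Hsd11b1, the enzyme that regenerates active glucocorticoid inside cells, was at 14.8 ± 11.7 CPM in hippocampus and 5.21 ± 7.15 CPM in frontal cortex (SD, n = 20), an edgeR log2 fold change of -2.12 (SE 0.76, adjusted p = 0.134). The chaperones Hspa8 and Ptges3 followed at -0.51 (SE 0.25, adjusted p = 0.435) and -0.30 (SE 0.18, adjusted p = 0.593). Of 21 zinc genes 0 passed, with the transporters Slc39a10, Slc39a4 and Slc39a13 at 0.33 (SE 0.15, adjusted p = 0.376), -2.02 (SE 1.03, adjusted p = 0.458) and 0.79 (SE 0.46, adjusted p = 0.584) on the log2 scale. Of 11 hypoxia genes 0 passed, and those with the smallest p were Egln3, an oxygen sensor, at 1.72 (SE 0.92, adjusted p = 0.511), Ankrd37 at 1.77 (SE 1.01, adjusted p = 0.567) and Bnip3, a mitophagy receptor, at 0.34 (SE 0.20, adjusted p = 0.616).

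Because Mt2 passed between regions and its neighbour Mt1 did not, the ratio of Mt2 to Mt1 CPM within a library was compared, a comparison chosen after these values were seen, so its p is not separate from the result for Mt2. The ratio ranged from 0.313 through 0.557 to 1.23 in hippocampus and from 0.305 through 0.432 to 0.552 in frontal cortex. It was lower in frontal cortex in 18 of 20 cohorts. The mean difference on the log2 scale was -0.47 ± 0.42 (SD, two-sided permutation test of paired differences, p = 0.00014, adjusted p = 0.00042 over 3 comparisons). Post-KD and pre-KD libraries differed by 0.25 in hippocampus (permutation p = 0.303) and by 0.17 in frontal cortex (permutation p = 0.187) in the mean log2 ratio. The ratio in hippocampus was 0.549 ± 0.133 in pre-KD and 0.699 ± 0.325 in post-KD libraries (SD, n = 10).

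**Figure D3:**
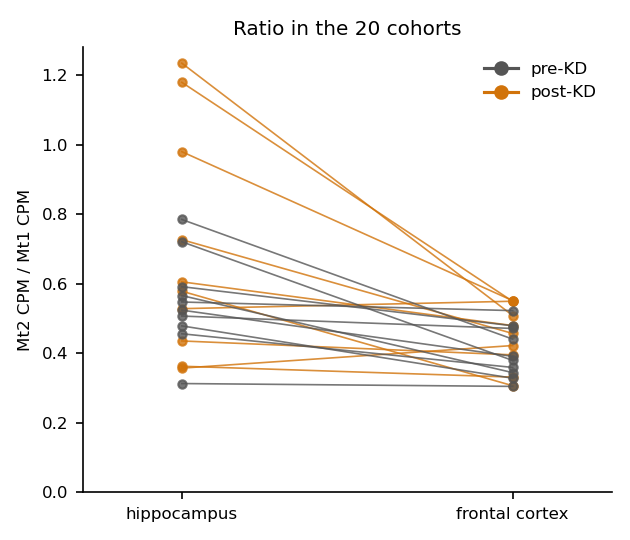
Ratio of Mt2 to Mt1 CPM (y axis, from 0) in hippocampus and frontal cortex, with a line for each of the 20 cohorts, pre-KD in grey and post-KD in orange. The ratio is lower in frontal cortex in 18 of 20 cohorts and spreads from 0.313 to 1.23 in hippocampus.

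The third question was whether a cohort that was high in one region was also high in the other. Over the 20 cohorts, on log2 CPM, Mt2 had an r of 0.712 between regions (Spearman's rho 0.647), the value that the choice of genes had used. The post-KD cohorts of donors 3 and 8 and the pre-KD cohort of donor 6 were the 3 highest in hippocampus, at 520.2, 569 and 508 CPM, and the 3 highest in frontal cortex, at 318, 303 and 286 CPM. Of 7671 genes averaging at least 20 counts in both regions, Mt2 ranked 7 by r, the median r was 0.0173 and 2.1% had an r of at least 0.5. Better counted genes had a slightly higher median, 0.0739 over 1107 genes averaging at least 200 counts, of which 3.43% had an r of at least 0.5. For Mt2 the r was 0.563 without the 2 cohorts farthest from the hippocampal median, 0.442 in pre-KD cohorts alone and 0.907 in post-KD cohorts alone, and the difference between conditions was not tested. Without donors 9 and 10 it was 0.785.

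Mt1 had an r of 0.521 (rho 0.439), which was 0.320 without the pre-KD cohort of donor 6, the highest of the 20 in both regions at 897 and 829 CPM. Sgk1 had an r of 0.493 (rho 0.534), 0.754 in pre-KD and 0.177 in post-KD cohorts alone. Mt3 had an r of 0.351 (rho 0.0271) that rested on the pre-KD cohort of donor 8, since it was -0.121 without it. Fkbp5 and Tsc22d3 were at 0.251 and 0.119, Zbtb16 at 0.0496 and Nr3c1 at -0.386. Leaving out 1 cohort gave 0.041 to 0.21 for Tsc22d3 and -0.073 to 0.20 for Zbtb16. Nr3c2 and Hif3a, which averaged fewer than 20 counts, were at -0.255 and -0.246, and Nr3c2 was at -0.642 without donors 9 and 10 and at 0.114 without the 2 farthest cohorts. The 8 better counted genes had a median r of 0.301, and Mt1 and Mt2 were the 2 of 8 with an r of at least 0.5. Both libraries of a cohort come from mice given the same stool, so these points share the donor and the cohort's handling.

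**Figure D4:**
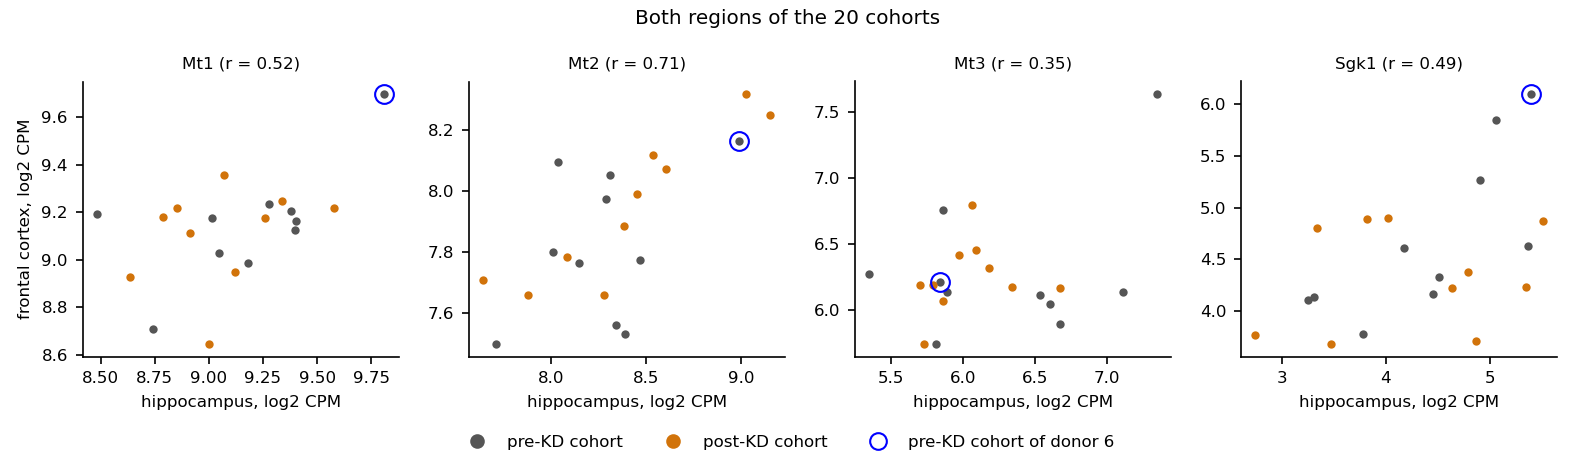
Level in frontal cortex (y axes, log2 CPM) against hippocampus (x axes, log2 CPM) for Mt1, Mt2, Mt3 and Sgk1 in the 20 cohorts, pre-KD in grey and post-KD in orange, with the pre-KD cohort of donor 6 circled. The cohorts of Mt2 (r of 0.712) spread along the range, whereas 1 cohort lies apart at the upper right for Mt1 and for Mt3.

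**Figure D5:**
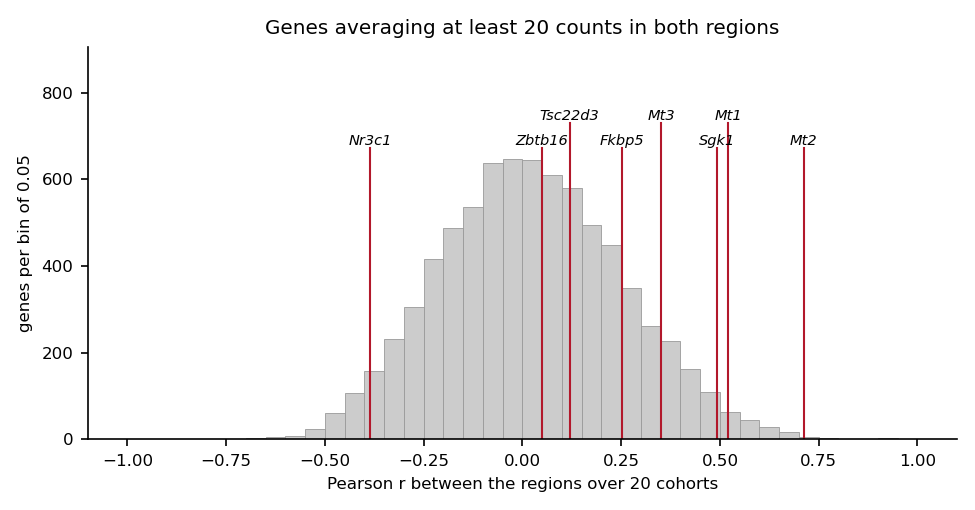
Number of genes (y axis, bins of 0.05) by Pearson r between regions over 20 cohorts (x axis) for the 7671 genes averaging at least 20 counts, with red lines at 8 of the genes described. Mt2 at 0.712 lies in the upper tail and Nr3c1 at -0.386 in the lower one.

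Pairs of the 8 better counted genes were also compared within a region. Over 28 pairs the median r across the 20 libraries was 0.0309 in hippocampus and 0.113 in frontal cortex, with 15 and 20 pairs above 0. In each region 1 pair, Sgk1 with Mt1, had an r of at least 0.5. That pair had an r of 0.817 in hippocampus (rho 0.817) and 0.549 in frontal cortex (rho 0.346), and 0.807 and 0.324 without the pre-KD cohort of donor 6. Mt2 and Mt1, which are adjacent and known to be induced by the same signals, had an r of -0.0409 in hippocampus and 0.246 in frontal cortex. Mt2 with Mt3 was at -0.458 and -0.236.

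The genes most like each gene were ranked by the smaller of the 2 within-region r over the 7671 genes and 20 libraries of a region. For Mt2 these were Mia3, Atp1b2, Ndufa6, Tubb2a and Sem1, with a smaller r of 0.584, 0.583, 0.512, 0.509 and 0.503, and Mt1 ranked 2246. For Mt1 they were Ptpn11 at 0.564, Sgk1 at 0.549 and Actb at 0.548. For Sgk1 they were Hspa5, a chaperone of the endoplasmic reticulum, at 0.601, Mt1 at 0.549 and Pnpla2 at 0.543. For Tsc22d3 they were Enpp2, a lysophospholipid enzyme that is also on the choroid plexus list, at 0.589, Faah at 0.539 and Hipk3 at 0.521. For Zbtb16 the closest was Lncpint, a long noncoding RNA, at 0.740, followed by Zfp236 at 0.654 and Scand1 at 0.588. For Nr3c1 they were Gorasp2, Trak2 and Txndc11 at 0.496, 0.485 and 0.469, and for Fkbp5 they were Ssr4, Kcnd2 and Snx4 at 0.531, 0.518 and 0.486.

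For Mt3 the most alike were Gm42418 at 0.728 and the mitochondrial transfer RNAs mt-Tp at 0.721 and mt-Tm at 0.685. Like Mt3, all of them were highest of the 20 libraries of a region in the pre-KD cohort of donor 8. Gm42418 was at 201023 CPM in that cohort's hippocampus and 205879 CPM in its frontal cortex, with medians of 116190 and 122500 CPM in the other 19. The r of Mt3 with Gm42418 was 0.781 in hippocampus and 0.728 in frontal cortex. For Mt2 it was -0.650 and -0.240, for Mt1 0.379 and 0.429, and for Sgk1 0.506 and -0.0421. The part of a library's ribosomal RNA content in the levels of these genes was not tested.

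The pre-KD cohort of donor 6 is described because it recurred among the highest values, a choice made after seeing them. Of the 10 genes it was the highest of 20 libraries for 2 in hippocampus, Mt1 and Tsc22d3, and for 4 in frontal cortex, Mt1, Sgk1, Zbtb16 and Hif3a. It was among the 3 highest for 5 and 6 of the 10. Of 21 further glucocorticoid targets it was among the 3 highest for 6 in hippocampus and 8 in frontal cortex, and the highest for 2 and 1. Over the 7671 genes averaging at least 20 counts it was among the 3 highest for 17.2% and 13.2%, and the highest for 5.59% and 3.69%. Of 10 choroid plexus markers it was among the 3 highest for 4 and 7, and of 8 immediate early genes for 1 and 0. Of 3 blood genes it was among the 3 highest for 3 in hippocampus and 1 in frontal cortex. The part of choroid plexus RNA and of blood in these levels was not tested.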

How the data were processed

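Per the labels and methods, the authors made the libraries from pooled RNA, aligned paired reads of 69 bp to mm10 with STAR 2.5.2a and counted reads per gene with HTSeq 0.6.0; the deposited tables hold these raw counts for hippocampus and frontal cortex. The annotation release and the strand setting are not given in the sources used here, and the sources disagree on the library kit. Groups came from the labels. The 10 genes, lists and comparisons were chosen with earlier results of these data known. Symbols came from GENCODE M21 and upstream windows from RefSeq.

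Counts were tested with edgeR 4.0.16 (quasi-likelihood, TMM, genes with at least 10 counts in all, Benjamini-Hochberg adjustment over all genes), for post-KD against pre-KD per region and, with cohort terms, for regions and their interaction. The SE was the log2 fold change divided by the root of F. CPM used joint TMM factors, and correlations log2 CPM with a prior count of 2. Labels tie both conditions to 1 donor. The deviations of same-donor libraries had an r near 0, from -0.0280 to 0.0299 in hippocampus and from -0.0564 to 0.0317 in frontal cortex. The donor block was an alternative. Others were RLE factors, other filters, DESeq2 1.42.0, limma 3.58.1 and donors left out (with cohort terms, at the dispersions of the full fit). Scripts were tested on simulated counts. The ratio, the donor 6 description and the fits without donors 9 and 10 were added after seeing the data. Named genes were the 10, up to 3 genes per pathway list with an unadjusted p under 0.05 for post-KD against pre-KD in a region, the 3 with the smallest p per list between regions, and the 3 most alike (5 for Mt2). p-values measure the spread between pooled cohorts.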

Additional observations from a re-analysis of the deposited data

Results flagged for a closer look

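Within a group of 10 libraries, a single library lay far from the nearest of the others, by Dixon's criterion at 95%, in 6 of the 40 groups of the 10 genes, and chance alone gives about 1 in 20 groups of independent, normally distributed values. These groups share libraries and their CPM are skewed, so their number was not compared with that rate. The pre-KD library of donor 6 was the one in 3 of them. Its Mt1 in frontal cortex was 829 CPM with the next pre-KD library at 601 CPM, its Zbtb16 in frontal cortex 104 CPM with the next at 36.8 CPM, and its Mt2 in hippocampus 508 CPM with the next at 353 CPM. The pre-KD library of donor 8 had 197 CPM of Mt3 in frontal cortex, with the next at 107 CPM. Fkbp5 in post-KD hippocampus was 45.1 CPM for donor 6 and at most 24.5 CPM in the others. Hif3a in pre-KD hippocampus was 4.67 CPM for donor 7, which was 7 counts, and at most 0.544 CPM in the others.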

How the results depend on the processing

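Mt2 was lower in frontal cortex with an adjusted p under 0.05 in every alternative run. Of the alternative fits of single genes, 624 kept the direction and the side of the threshold, 34 turned the direction of a change that was not called, and 8 lost the Zbtb16 call, so that 1 of the 10 genes passed between regions without a gene filter and 1 to 2 when 1 donor was left out. The r of Mt2 was 0.442 in pre-KD cohorts, 0.907 in post-KD cohorts and 0.563 without the 2 farthest cohorts. With no gene filter, edgeR's filterByExpr, DESeq2, the donor block in edgeR, the donor block in DESeq2 and limma-voom with quality weights, the genes with an unadjusted p under 0.05 numbered 2931, 221, 599, 348, 931 and 962 in hippocampus and 3035, 407, 825, 548, 1096 and 1071 in frontal cortex. Genes with an adjusted p under 0.05 in hippocampus numbered 1291 with no gene filter, 0 with filterByExpr, DESeq2 and both donor blocks, and 0 to 1 when 1 donor was left out. In frontal cortex they numbered 2 in DESeq2, 3 with the donor block in edgeR, 12 with it in DESeq2 and 3 in limma-voom. The block changed no call of the 10 genes beyond Hif3a in frontal cortex, except that Nr3c2 in hippocampus had an unadjusted p of 0.0317 with the block in DESeq2. Between regions, DESeq2 passed 1033 genes, and without the cohort term, which pairs the regions as a replicate block, edgeR passed 1935 and 3475 were under the unadjusted threshold. For the difference of the post-KD change between regions these 2 counts without the block were 348 and 1767, and the unadjusted p of Hif3a was then 0.00433; without donors 9 and 10 that of Tsc22d3 was 0.0499.

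The directions that turned belonged to changes that were not called. Without the pre-KD library of donor 6 hippocampal Sgk1 was 0.022, hippocampal Tsc22d3 0.13, cortical Zbtb16 0.13 and cortical Mt1 0.014, and hippocampal Zbtb16 was -0.081 in limma-voom. Between regions Mt1 was -0.021 with RLE size factors, -0.022 in DESeq2 and -0.0048 without the replicate block, and Tsc22d3 was -0.091 without it. Leaving out 1 donor gave hippocampal ranges of -0.30 to 0.11 for Sgk1, -0.32 to 0.19 for Tsc22d3 and -0.0063 to 0.30 for Zbtb16, cortical ranges of -0.20 to 0.012 for Nr3c1, -0.44 to 0.25 for Zbtb16, -0.10 to 0.011 for Mt1 and -0.26 to 0.14 for Mt3, regional ranges of -0.12 to 0.18 for Tsc22d3, -0.86 to 0.58 for Hif3a and -0.036 to 0.045 for Mt1, and ranges of the difference between regions of -0.044 to 0.80 for Fkbp5, -0.37 to 0.030 for Sgk1 and -0.10 to 0.049 for Mt2. Fewer genes entered with filterByExpr and more with no filter. The cause of the other changes was not tested. Depth limits Hif3a and Nr3c2 most, with 1.55 to 16.8 counts per library on average.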
